A study of Mus musculus with 18 samples.

Results

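Accessible regions around 4 genes that drive endoderm and mesoderm formation, Sox17, Gata6, T and Eomes, were examined in mouse embryonic stem (ES) cells. A fixed mm9 window was taken around each gene: chromosome 1 from 4455000 to 4515000 for Sox17, chromosome 18 from 11025000 to 11115000 for Gata6, chromosome 17 from 8600000 to 8665000 for T, and chromosome 9 from 118360000 to 118425000 for Eomes. All ATAC-seq peaks of 18 lists that overlapped a window were taken, and peaks that overlapped each other by 1 bp or more were merged into regions. This gave 78 regions of the 377189 in the whole series: 14 at Sox17, 25 at Gata6, 19 at T and 20 at Eomes. Regions are numbered by position within their window. ATAC-seq uses a transposase that inserts adapters into open DNA, so open sites appear as peaks.

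The study asked how topoisomerase II (TOP2), which untangles DNA, and the BAF chromatin remodelling complex act together on chromatin. Wild-type ES cells, kept in serum and LIF, were given ICRF-193 at 1 µM, which blocks the TOP2 catalytic cycle, or DMSO. This lasted 24 h (2 libraries per group) or 1 h (3 per group). The 1 h groups rest on the titles and the design text, whereas the protocol of treatment names only 24 h. Brg1fl/fl; Actin-CreER cells and Baf53afl/-; Actin-CreER cells were exposed to 0.8 µM tamoxifen, or to ethanol, during 24 h and were harvested 48 h after its removal (2 libraries per group and line). Tamoxifen activates CreER, which removes the floxed gene: Brg1 encodes the BAF ATPase and Baf53a an actin-like subunit. Both treated and control cells of these lines carry the CreER transgene, driven by the actin promoter, and the Baf53a controls already have 1 deleted allele. The design text describes the replicates as passages of 1 line, so differences measure the spread between passages and libraries. All libraries came from sorted viable cells.

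Sox17 is an SRY-related transcription factor of definitive and primitive endoderm. Gata6 is a zinc finger factor that directs the primitive endoderm fate. T (Brachyury) and Eomes are T-box factors of the primitive streak, where mesoderm and definitive endoderm arise. In ES cells grown with LIF such lineage genes are largely silent, and many of them lie in facultative heterochromatin marked by Polycomb complexes, which BAF is known to oppose. Peak lists hold no RNA levels, so the expression of these genes and the identity of the cells could not be checked here.

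Promoter sequences are shown for the 2 T-box genes to show the kind of element that the windows are built around. They run from 250 bases before to 50 bases after the RefSeq start, on the plus strand of GRCm38.p6, and come from RefSeq. That build differs from the mm9 build of the peaks, so no peak was placed on them. Capitals mark matches on either strand to the CCAAT box (CCAAT) and to the T-box half-site AGGTGT.
T: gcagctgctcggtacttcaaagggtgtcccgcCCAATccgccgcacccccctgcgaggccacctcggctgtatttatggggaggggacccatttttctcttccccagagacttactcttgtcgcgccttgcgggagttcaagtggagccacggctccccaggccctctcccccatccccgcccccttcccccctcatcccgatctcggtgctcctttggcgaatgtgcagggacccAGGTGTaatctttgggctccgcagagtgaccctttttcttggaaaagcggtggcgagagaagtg
Eomes: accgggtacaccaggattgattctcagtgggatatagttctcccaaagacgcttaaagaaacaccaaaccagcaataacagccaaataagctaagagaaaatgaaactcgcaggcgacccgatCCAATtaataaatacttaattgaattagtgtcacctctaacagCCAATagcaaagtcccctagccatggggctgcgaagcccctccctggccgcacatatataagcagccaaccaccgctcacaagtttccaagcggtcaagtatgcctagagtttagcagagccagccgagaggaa
The T promoter held 17 CG dinucleotides and the Eomes promoter 10, against a median of 7 over 32851 promoters of the same length. A CCAAT match was present once in the T promoter and at 2 places in the Eomes promoter, and 37.4% of all promoters held one. The match to AGGTGT, which overlaps no CCAAT match, lay in the T promoter, and 13.7% of all promoters held this sequence. No match to TATAAA (13.6% of promoters), AGATAA (11.2%) or AACAAT (10.7%) was found in these 2 windows of 300 bases.

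The 18 lists held 46431 to 129880 peaks over 11.6 to 37.2 Mb. The 3 shortest were Brg1 tamoxifen replicate 2 (46431 peaks), ICRF-193 1 h replicate 2 (50611) and DMSO 1 h replicate 2 (58532). The lists hold no read counts and depth is unknown, so a missing peak means only that none was called. The score of a peak is the authors' own value, and it is given below as a percentile within its list. Lists differ in length, so percentiles are descriptions and no change was read from them.

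Eomes had the most open window and Gata6 the least, relative to window length. The median list held 9 peaks in the 65 kb Eomes window (range 5 to 12), 5.5 in the 65 kb T window (2 to 8), 3.5 in the 60 kb Sox17 window (2 to 6) and 4 in the 90 kb Gata6 window (0 to 8). The ranges overlapped between neighbours in this order. As peaks per 10 kb, the medians were 1.38 for Eomes, 0.846 for T, 0.583 for Sox17 and 0.444 for Gata6, against a median of 0.143 over 37739 tiles of 70 kb over the genome. Of those tiles, 98.3% lay below Eomes, 87.5% below T, 80.3% below Sox17 and 72.8% below Gata6. The median length of DNA under peaks was 2974 bp at Eomes, 1908 bp at Sox17, 1315 bp at T and 962 bp at Gata6.

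**Figure D1:**
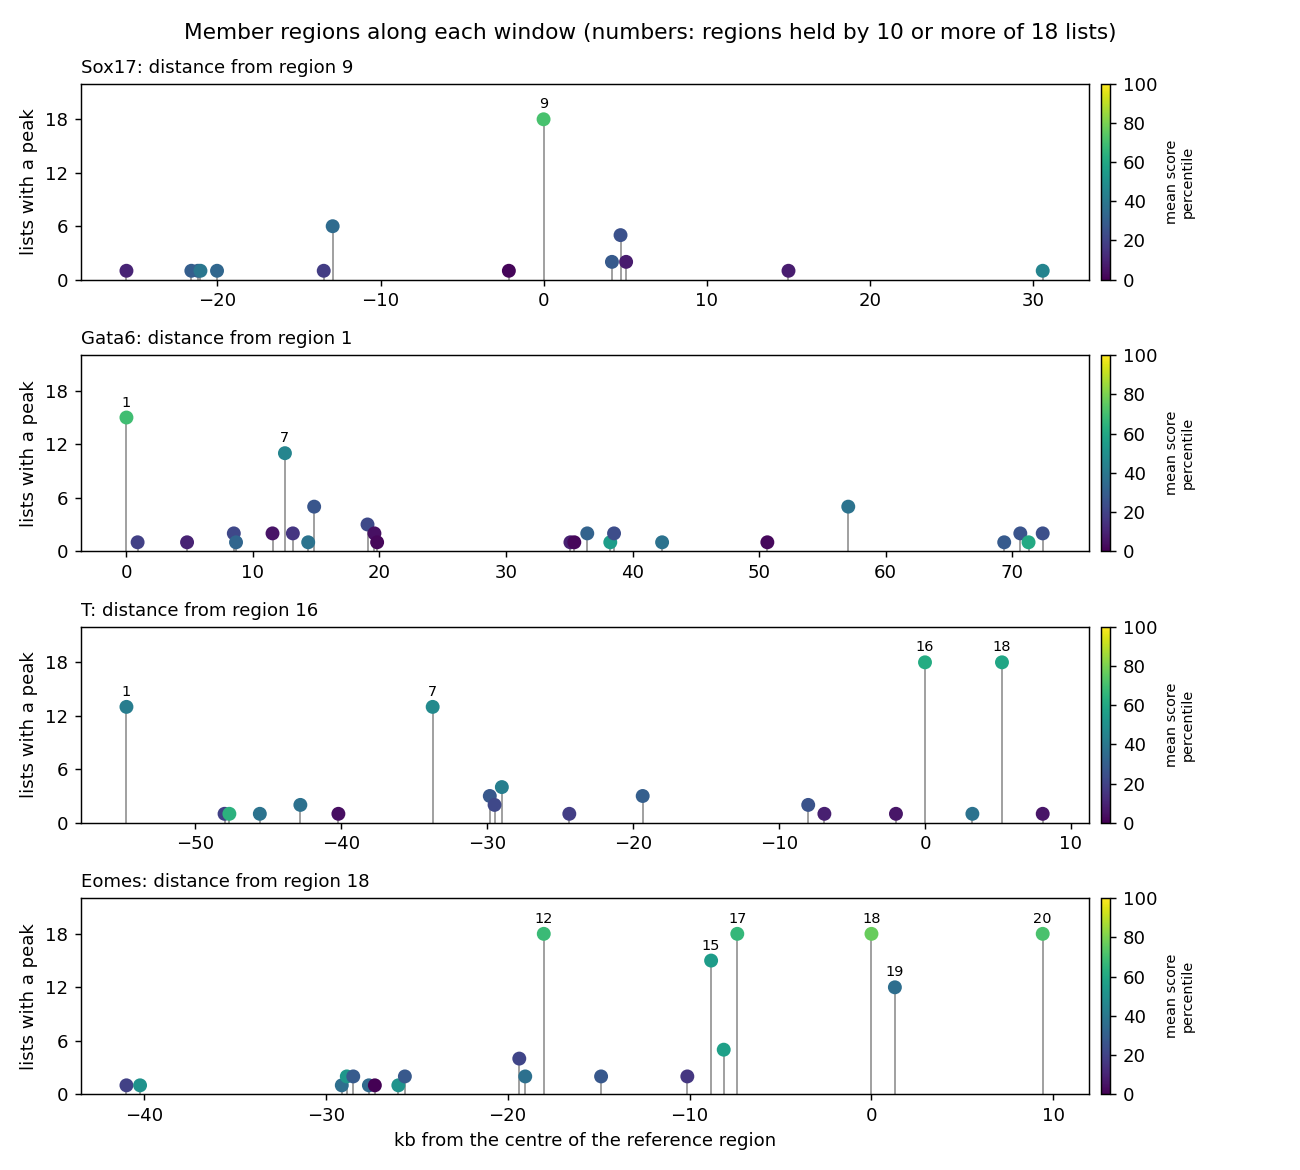
Each point is 1 of the 78 member regions, placed by its distance in kb from the centre of the best-detected region of its window (x axis), with the number of the 18 lists that held a peak there (y axis) and its mean score percentile as colour. The 7 regions at 18 lists lie at Eomes (4), T (2) and Sox17 (1), and none lies at Gata6.

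Of the 78 regions, 7 (8.97%) held a peak in all 18 libraries, against 4.79% of all regions in the series. A further 6 were held by 10 to 17 lists, 29 by 2 to 9 lists and 36 by 1 list (46.2%, against 54.9% of all regions). The regions of the 4 windows therefore ranged from sites open in every library to sites called once. Detections in the 7 constant regions had a median percentile of 72.9 (24.3 to 92.9), and detections in the 36 regions of 1 list had a median of 23.9. The same medians over all regions of the series were 87.7 and 15.7. Within the 18061 regions found in all 18 lists, a set of equal size in every list, the 7 members ranked low, with median rank percentiles over the 18 lists of 10.8 to 35.0.

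Sox17 had a single constant region, number 9, on chromosome 1 from 4481754 to 4483927. It was the widest of the 78 at 2174 bp, wider than 99.6% of the regions found in all lists, and 15 of 18 lists split it into 2 to 4 peaks. Its percentiles were 76.8 and 83.4 in DMSO 24 h, 76.6 and 65.1 in ICRF-193 24 h, 80.3, 71.1 and 80.4 in DMSO 1 h, and 74.5, 41.8 and 74.3 in ICRF-193 1 h. In the conditional lines they were 64.8 and 57.4 (Brg1 ethanol), 79.4 and 56.4 (Brg1 tamoxifen), 80.0 and 60.3 (Baf53a ethanol) and 71.0 and 85.6 (Baf53a tamoxifen). The lowest value came from a short list, ICRF-193 1 h replicate 2. Control and treated percentiles overlapped at 1 h and in both deletion lines. At 24 h ICRF-193 replicate 1 (76.6) lay just below the lower DMSO list (76.8). Ranked within the regions found in all 18 lists, Brg1 tamoxifen (26.2 and 21.9) lay above ethanol (7.44 and 6.88). The ICRF-193 ranks lay below the DMSO ranks at 24 h (21.7 and 17.7 against 22.2 and 28.0). At 1 h they did so narrowly, with 18.2, 10.4 and 19.07 against 19.6, 31.8 and 19.13. The Baf53a ranks overlapped, and no rank difference was tested.

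The other 13 Sox17 regions were seen in 1 to 6 lists. Region 7 (4469761 to 4470052) was held by 6 lists, from 7.72 to 65.8 in percentile, and lay 12.9 kb from region 9 on the side of lower coordinates. Region 11 (4487396 to 4487723), 4.72 kb from region 9 on the other side, was called in 5 of 8 conditional lists and in 0 of 10 wild-type lists. Its percentiles were 35.9 and 13.5 in Brg1 ethanol, 18.8 in Brg1 tamoxifen replicate 1, 43.1 in Baf53a ethanol replicate 2 and 13.0 in Baf53a tamoxifen replicate 2. Most of these were weak peaks, and the split between lines was noticed in the data and not tested. The adjacent region 12 (4487782 to 4488021) held weak peaks in ICRF-193 1 h replicate 1 (12.3) and Baf53a ethanol replicate 1 (3.23). The split thus holds only with regions 11 and 12 counted apart. Regions 14 (4513389 to 4513510, percentile 45.2) and 4 (4461735 to 4461861, 39.4) scored next after region 9 and were each seen in 1 list only, Brg1 ethanol replicate 2 and Baf53a tamoxifen replicate 1.

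Gata6 had no region in all lists. Its most frequent region, number 1, on chromosome 18 from 11039566 to 11040373 (808 bp), was held by 15 lists. The wild-type percentiles were 77.8 and 65.8 in DMSO 24 h, 86.4, 55.7 and 79.7 in DMSO 1 h, 71.7 in ICRF-193 24 h replicate 1, and 78.0, 60.8 and 69.3 in ICRF-193 1 h. No peak was called in ICRF-193 24 h replicate 2. In the Brg1 line it was 82.0 and 52.5 with ethanol and had no peak in either tamoxifen list. The Baf53a line had 73.6 and 82.7 with ethanol and 68.8 and 35.2 with tamoxifen. Among the 3 shortest lists, both 1 h replicate 2 lists held this region and Brg1 tamoxifen replicate 2 did not.

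Region 7 of Gata6 (11052250 to 11052741, 12.5 kb from region 1) was held by 11 lists at 23.8 to 67.7, and the 23 remaining regions by 5 lists at most. It was missing from DMSO 24 h replicate 1, from 4 of 6 lists of the 1 h experiment and from replicate 2 of both tamoxifen groups. Regions 24 (11111160 to 11111377, percentile 60.5) and 17 (11078147 to 11078273, 55.2) were each called in 1 list only, Baf53a tamoxifen replicate 1 and DMSO 24 h replicate 1. The whole 90 kb window held 0 peaks in Brg1 tamoxifen replicate 2, the shortest list, and 2 in replicate 1.

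At T, 2 constant regions lay close together, number 16 (chromosome 17 from 8656234 to 8656936, 703 bp) and number 18 (8661503 to 8662218, 716 bp), with centres 5.28 kb apart. Region 16 had percentiles of 44.7 and 72.2 in DMSO 24 h, 49.8 and 62.6 in ICRF-193 24 h, 75.3, 25 and 73.2 in DMSO 1 h, and 84.4, 52.5 and 78.0 in ICRF-193 1 h. Its values in the conditional lines were 68.6 and 74.0, 74.7 and 54.0, 54.6 and 74.7, and 60.5 and 27.9, in the order Brg1 ethanol, Brg1 tamoxifen, Baf53a ethanol and Baf53a tamoxifen. In these percentiles every treated group overlapped its control. Ranked within the regions found in all 18 lists, ICRF-193 1 h (36.7, 17.5 and 24.7) lay above DMSO 1 h (12.3, 2.53 and 10.2). The other groups overlapped in rank too, and the rank difference was not tested.

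For T region 18 the wild-type percentiles were 67.3 and 83.0 in DMSO 24 h, 79.7 and 26.8 in ICRF-193 24 h, 84.1, 49.0 and 66.3 in DMSO 1 h, and 78.9, 39.3 and 70.7 in ICRF-193 1 h. The Brg1 lists had 52.8 and 78.1 with ethanol and 86.9 and 69.6 with tamoxifen. All 4 Baf53a lists were lower than every Brg1 list, at 36.6 and 24.3 with ethanol and 39.4 and 31.1 with tamoxifen. The lists of these lines were thus apart with and without deletion, and the difference and its cause were not tested. In wild-type cells, the percentiles of ICRF-193 replicate 2 at 24 h (26.8) and at 1 h (39.3) lay in the Baf53a range. Ranked within the regions found in all 18 lists, both lay above the Baf53a lists, at 1.77 and 8.92. The Baf53a ranks were 0.32 and 0.47 with ethanol and, above these, 1.28 and 1.39 with tamoxifen. Brg1 tamoxifen (45.2 and 36.8) lay above ethanol (2.63 and 28.6) in rank. The wild-type groups overlapped their controls, and no rank difference was tested.

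Regions 1 (8601407 to 8602306, 900 bp, the widest at T) and 7 (8622511 to 8623176) of the T window were each held by 13 lists. Region 1 had 46.6 and 55.1 in DMSO 24 h, 76.1 and 49.5 in ICRF-193 24 h, 46.8 and 47.2 in DMSO 1 h replicates 1 and 3, and 41.2, 2.03 and 51.6 in ICRF-193 1 h. It had 7.56 and 17.4 in Brg1 ethanol, 48.6 and 54.5 in Baf53a ethanol, and no peak in any of the 4 tamoxifen lists. DMSO 1 h replicate 2, a short list, was the only other list without it. Region 7 had 73.2 and 56.5 in Brg1 ethanol, no peak in Brg1 tamoxifen, 72.6 and 60.0 in Baf53a ethanol and 16.3 and 63.1 in Baf53a tamoxifen. In wild-type cells it was present in 7 of 10 lists, at 3.93 to 65.6. Among single-list regions at T, number 3 (8608852 to 8608970) scored highest, at 64.0 in ICRF-193 24 h replicate 2.

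Eomes held 4 constant regions over 27.4 kb, numbers 12, 17, 18 and 20. Region 18 (chromosome 9 from 118405955 to 118406579, 625 bp) had the highest mean percentile of the 7 constant regions, 76.9 ± 14.0 (SD over 18 lists). It had 83.2 and 91.3 in DMSO 24 h, 77.6 and 78.9 in ICRF-193 24 h, 85.7, 43.3 and 89.1 in DMSO 1 h and 86.3, 77.9 and 81.1 in ICRF-193 1 h. With ethanol and tamoxifen it had 85.1 and 82.4 against 83.5 and 62.5 in the Brg1 line, and 92.9 and 71.6 against 63.6 and 48.3 in the Baf53a line. In percentile, the Baf53a tamoxifen lists were both below both ethanol lists. The ICRF-193 lists at 24 h were both below both DMSO lists, and the other groups overlapped. Ranked within the regions found in all 18 lists, ICRF-193 24 h (23.6 and 36.5) and DMSO 24 h (34.7 and 52.8) overlapped. Baf53a tamoxifen (8.14 and 4.20) stayed below ethanol (63.0 and 18.3). Brg1 tamoxifen (35.2 and 27.9) lay below ethanol (37.37 and 37.39). The 1 h ranks overlapped, and no rank difference was tested.

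Region 20 (118414931 to 118416427, 1497 bp, the widest at Eomes) had a mean percentile of 71.1 ± 10.0, and region 12 (118387586 to 118388926, 1341 bp) one of 67.7 ± 13.7 (SD over 18 lists). Region 17 (118398565 to 118399219, 655 bp) had a mean of 66.4 ± 13.4. These 3 ranged from 39.3 to 88.6 over all lists. In percentile only Baf53a tamoxifen at region 12 (63.9 and 40.1) lay apart from its control, below ethanol (76.3 and 71.2). Ranked within the regions found in all 18 lists it lay below ethanol there and at region 20 (17.2 and 11.7 against 24.4 and 19.9). Brg1 tamoxifen lay above ethanol at region 17 (32.0 and 33.0 against 4.98 and 24.4). ICRF-193 1 h lay above DMSO at region 20 (22.9, 48.8 and 25.6 against 15.7, 16.3 and 14.9). Other ranks overlapped, and none was tested. A further pair of regions was frequent, number 15 (118397251 to 118397656) in 15 lists and number 19 (118407199 to 118407909) in 12, and the remaining 14 were held by 5 lists at most.

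Eomes region 19 lies 1.29 kb from region 18 and was held unevenly over the groups. All 5 DMSO lists had a peak there, with percentiles of 49.4 and 4.25 at 24 h and 24.1, 37.3 and 68.4 at 1 h. Of the 5 ICRF-193 lists only 1 had a peak, replicate 3 at 1 h, at 7.61. The Brg1 line had no peak with ethanol and 63.5 and 58.9 with tamoxifen. The Baf53a line had peaks in all 4 lists, at 9.74 and 58.2 with ethanol and 17.3 and 29.3 with tamoxifen. Of the 37834 regions of the series present in all 5 DMSO lists, 1.6% had a peak in at most 1 ICRF-193 list (6.82% in the weakest of 5 equal classes by DMSO percentile), and among 9 such member regions it was 1. This grouping over both times was chosen after the values were seen. The peaks also differed in place: counting only peaks over the part of region 19 covered by the most lists, 4 of 5 DMSO lists and 0 of 5 ICRF-193 lists had one. That part was set by the lists with a peak, 5 DMSO lists and 1 ICRF-193 list among them. The count thus favours DMSO by construction and adds nothing independent.

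**Figure D2:**
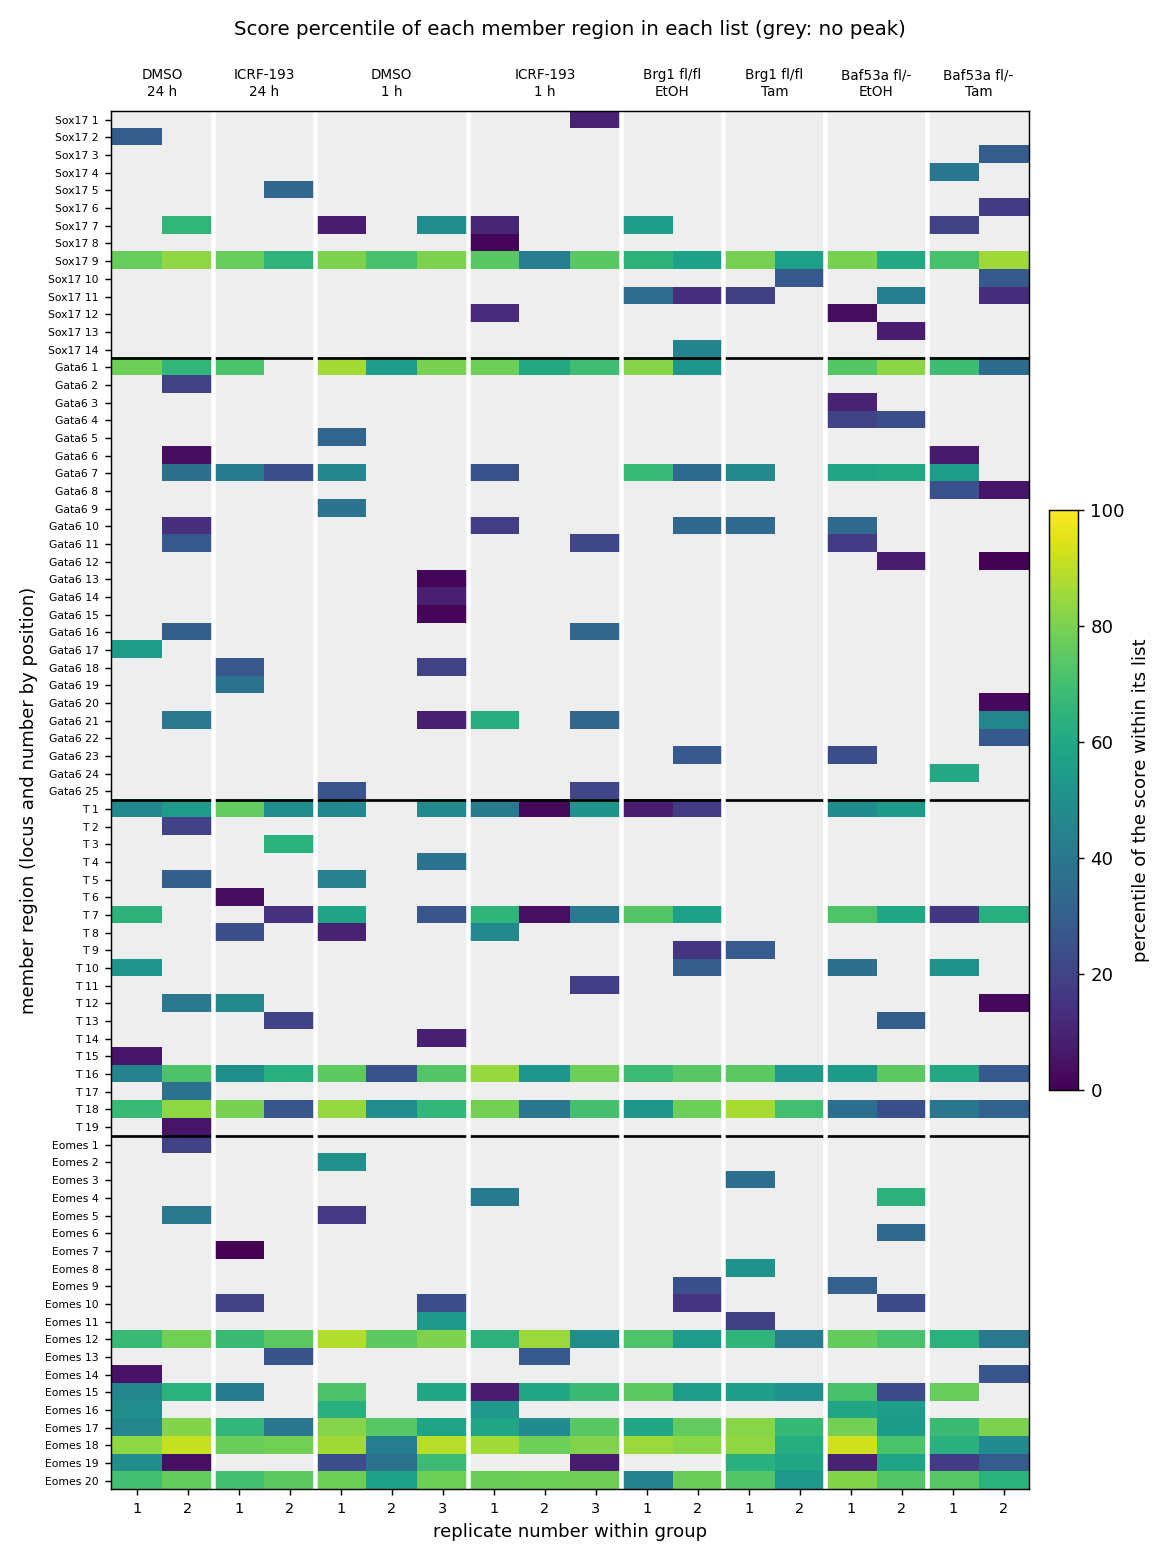
Rows are the 78 member regions in order of position, columns are the 18 lists by group and replicate number, and colour is the score percentile within the list, with grey for no peak. The 7 constant regions form unbroken rows, Gata6 region 1 is grey in both Brg1 tamoxifen lists, and T region 1 is grey in all 4 tamoxifen lists.

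For Brg1 deletion, a region was called lost when both ethanol lists and neither tamoxifen list held a peak, and gained in the reverse case. Of the 13 member regions in both ethanol lists, 3 were lost, against a background of 23.9% of 56649 such regions over the genome: Gata6 region 1, T region 1 and T region 7. The members' loss was thus close to that of all regions. Of 9 member regions in both tamoxifen lists, 1 was gained, Eomes region 19 (background 4.97%). Gata6 region 1 (mean ethanol percentile 67.3 ± 20.8, SD, n = 2) and T region 7 (64.9 ± 11.8) lay in the middle of 5 equal strength classes of regions shared by the ethanol lists, in which 23.4% were lost. Both calls and the gain of Eomes region 19 held with equal numbers of peaks per list, with the lowest-scoring 25% of each list removed, and when a peak had to overlap the core of the region, the part covered by the most lists. T region 1 was weak in both ethanol lists (12.5 ± 6.96), in a class in which 48.4% were lost, and its call was lost under each of these 3 settings, since neither ethanol peak then counted. The tamoxifen lists were shorter (84763 and 46431 peaks against 107473 and 85007), and the part of list length in these losses was not tested.

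For Baf53a deletion, 3 of 15 member regions in both ethanol lists were lost (background 11.2% of 57189) and 1 of 11 in both tamoxifen lists was gained (background 5.49%). Lost were T region 1 (mean ethanol percentile 51.6 ± 4.16, SD, n = 2), Eomes region 16 (118397890 to 118398403; 57.3 ± 1.99) and Gata6 region 4 (11048399 to 11048511; 21.5 ± 3.30). In the strength class of the first pair 15.2% of all regions were lost, and in that of Gata6 region 4, 33.4%. T region 1 and Eomes region 16 kept the call under the 3 settings above. Gata6 region 4, seen in no other list of the series, lost it with equal numbers of peaks and with the lowest 25% removed. The gained region was Gata6 region 8 (11052924 to 11053319), weak at 25 and 5.75 and seen in no other list. Its call was lost with the lowest 25% removed, where 1 tamoxifen list had the peak. Gata6 region 1 and T region 7, which had no peak after Brg1 deletion, had a peak in both Baf53a tamoxifen lists. At T region 7 the peak of Baf53a tamoxifen replicate 1 (percentile 16.3) overlapped neither Brg1 ethanol peak. That peak was merged into the region only through the peak of Baf53a ethanol replicate 1. At the site of the Brg1 ethanol peaks, only Baf53a tamoxifen replicate 2 (63.1) had a peak, so T region 7 shows no clear contrast between the deletions. The difference between the deletions was not tested at single regions.

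T region 1 was the member region with a peak in all 4 ethanol lists and in none of the 4 tamoxifen lists, 1 of 12 members with a peak in all 4 ethanol lists (background 2.64% of 43452). It rests on weak peaks in the Brg1 line, as given above. Wild-type cells held it in 9 of 10 lists, ICRF-193 at 24 h included.

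With ICRF-193 for 24 h, 1 of 11 member regions in both DMSO lists was lost, Eomes region 19 (background 15.5% of 65604), and 0 of 9 in both ICRF-193 lists were gained (background 5.46%). Its mean DMSO percentile was 26.8 ± 31.9 (SD, n = 2), in the weakest class, where 40.8% of regions were lost. This call was lost under the 3 settings, where 1 DMSO list had the peak. With ICRF-193 for 1 h, under the stricter rule of 3 lists against 3, 0 of 9 member regions were lost (background 2.28% of 41365) and 0 of 11 gained (background 0.375%).

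Peak numbers per window were also set against list length, as peaks in the window per 100000 peaks of the list. At Eomes the Brg1 tamoxifen lists had 13.0 and 12.9, above the ethanol lists at 5.58 and 10.6. The peak counts behind these shares overlapped, at 11 and 6 with tamoxifen against 6 and 9 with ethanol. The Gata6 window had 2.36 and 0 after Brg1 deletion against 1.86 and 4.71, so these groups overlapped. At T the ICRF-193 1 h lists, 5.94, 7.90 and 5.24, were all above the DMSO 1 h lists, 4.94, 3.42 and 4.62. Their peak counts overlapped too, at 6, 4 and 5 with ICRF-193 against 6, 2 and 6 with DMSO. The difference of 2.04 per 100000 gave p = 0.1 by exact permutation, which 3 lists against 3 cannot go below (two-sided, adjusted p = 0.889 over the 16 tests of 4 windows in 4 contrasts), with differences of 1.01, 4.49 and 0.621 within replicate numbers. The Eomes difference after Brg1 deletion, 4.86 per 100000, gave p = 0.333 by exact permutation, the floor for 2 lists against 2, with 7.39 and 2.34 within replicate numbers. At Gata6 these were 0.50 and -4.71. The other 14 comparisons had exact permutation p of 0.4 or more. Over all 4 contrasts together, with labels permuted within contrasts (4320 arrangements), the mean differences per 100000 were 0.463 at Sox17, -0.473 at Gata6, 0.171 at T and 0.982 at Eomes. The two-sided exact permutation p were 0.607, 0.588, 0.791 and 0.474 (each 0.791 after Benjamini-Hochberg adjustment over the 4 windows).

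**Figure D3:**
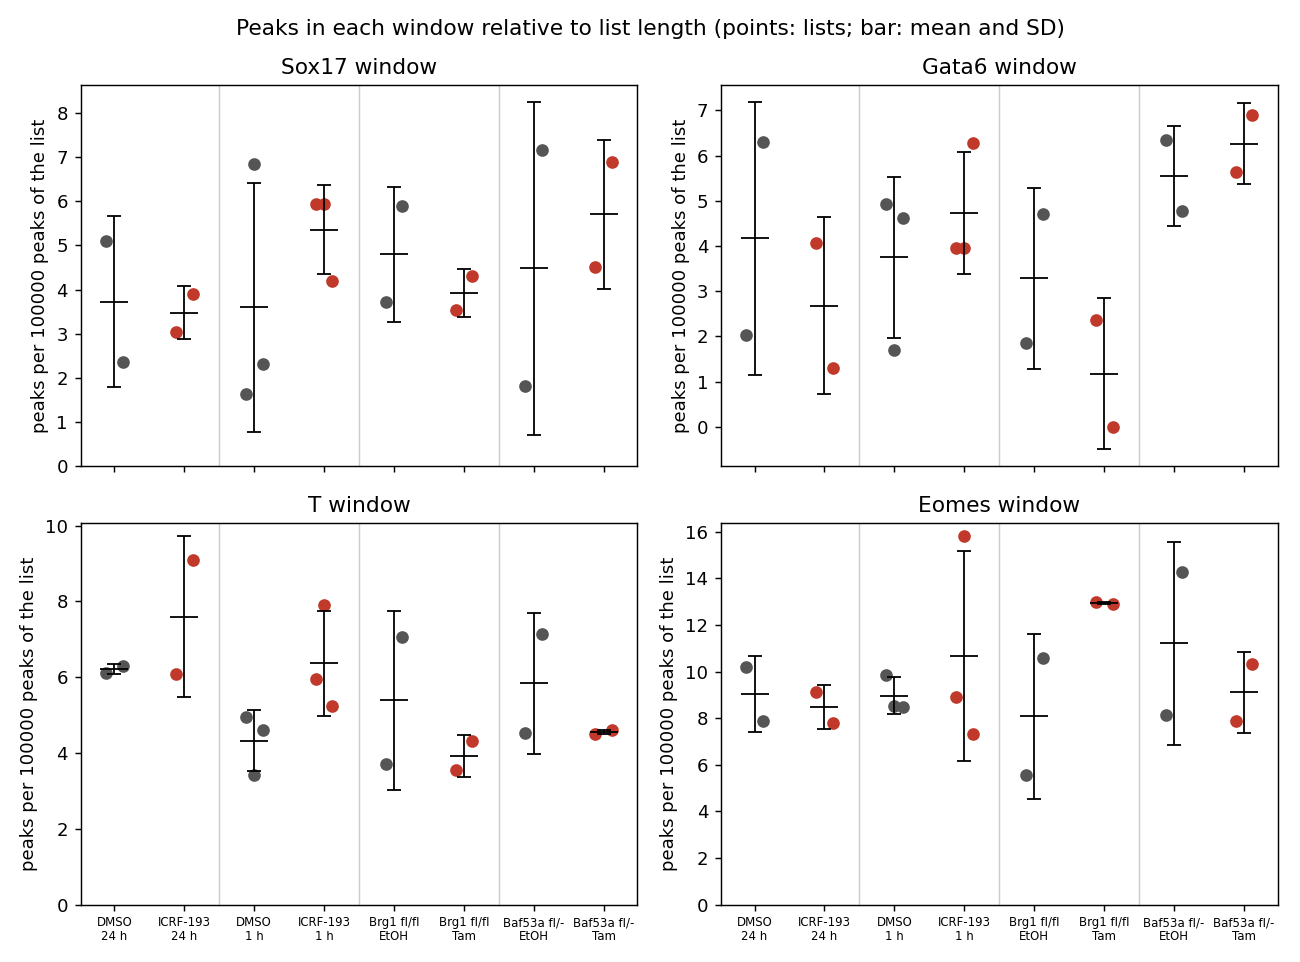
Each panel gives 1 window, with peaks per 100000 peaks of the list on the y axis, 1 point per list (grey for controls, red for treated), and a bar for the mean with SD (n = 2, or 3 at 1 h). In the T window the 3 ICRF-193 1 h lists lie above the 3 DMSO 1 h lists, and in the Eomes window both Brg1 tamoxifen lists lie above both ethanol lists.

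The same numbers were fitted with limma over 12130 windows (the 4 members and all 70 kb tiles with a mean of 3 or more peaks), as log2 of peaks relative to list total. None of the 4 windows passed an adjusted p of 0.05 in any contrast. The background was 0.387% of windows called after Brg1 deletion (47 of 12130) and 0% in the other 3 contrasts. At an unadjusted p under 0.05 limma gave 1468 windows after Brg1 deletion, 485 after Baf53a deletion, 520 with ICRF-193 for 24 h and 519 for 1 h. After Brg1 deletion the log2 change was 0.75 at Eomes (SE 0.34, 95% confidence interval 0.045 to 1.45, unadjusted p = 0.0378, limma adjusted p = 0.376), higher in 2 of 2 lists. All windows had a median of 0.16 in that contrast, and with quantile normalization, which removes this shift, the Eomes change was 0.50 (limma adjusted p = 0.640). With equal numbers of peaks per list the Eomes change was 0.58 (limma adjusted p = 0.504). It was 0.30 without ethanol replicate 1 (limma adjusted p = 0.924) and 1.19 without ethanol replicate 2 (limma adjusted p = 0.336). The Gata6 change was -0.98 (SE 0.56, interval -2.12 to 0.17, limma adjusted p = 0.487). It was -0.25 without tamoxifen replicate 2, the shortest list, -0.38 without ethanol replicate 2, and -0.33 with quantile normalization.

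In the remaining fits the log2 changes ran from -0.47 (Gata6, SE 0.56) to 0.27 (T, SE 0.38) with ICRF-193 for 24 h, and from 0.18 (Eomes, SE 0.28) to 0.77 (Sox17, SE 0.44) for 1 h. After Baf53a deletion they ran from -0.28 (T, SE 0.38) to 0.56 (Sox17, SE 0.54). The difference between the Brg1 and Baf53a changes was 0.98 at Eomes (SE 0.49, limma adjusted p = 0.747) and -1.15 at Gata6 (SE 0.80, adjusted p = 0.821), and it was not called in any of the 4 windows (background 0.0247%). The change at 24 h minus that at 1 h of ICRF-193 ran from -0.84 to -0.24 and was not called either (background 0%, with 394 windows at an unadjusted p under 0.05).

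**Figure D4:**
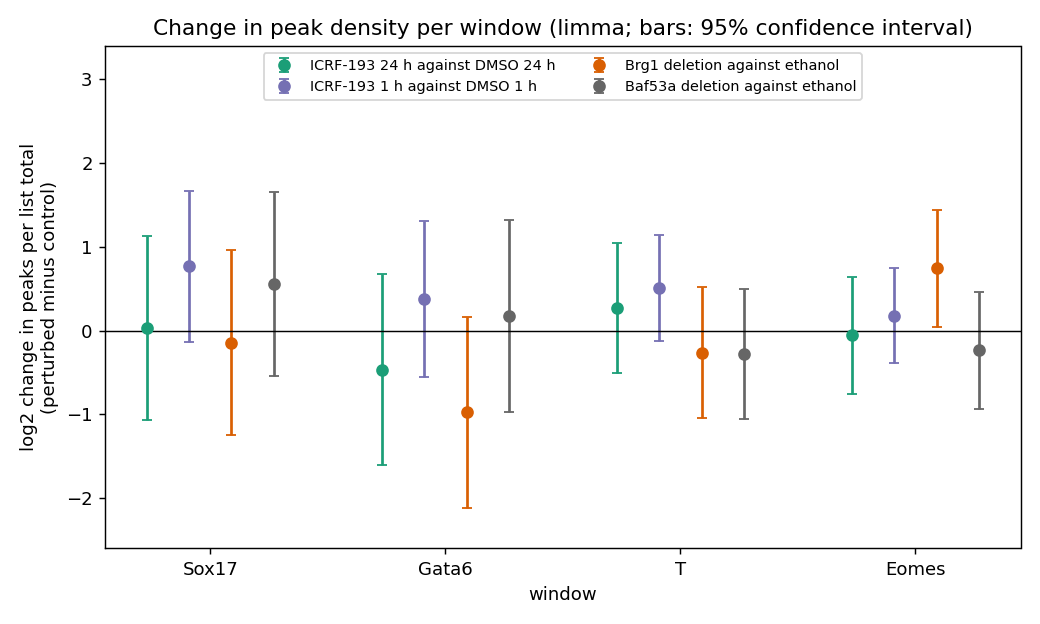
Points are the log2 change in peaks relative to list total (perturbed minus control, y axis) for each window (x axis) and contrast (colour), with 95% confidence intervals from limma. The interval of Eomes after Brg1 deletion, 0.045 to 1.45, lies above 0 before adjustment over all windows, and the other 15 intervals include 0.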

How the data were processed

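Each of 18 ATAC-seq libraries gave 1 deposited peak list, called per sample. The submitters' processing notes name mm9, Bowtie 0.12.9, MACS2 and edgeR 3.12.1 without saying what each did. No source used here states read shifting, blacklists or calling thresholds. Peak starts and ends (other values, counted from 1 here) and a score per peak were used as the authors deposited them. Its scale is not stated, so the score served for ranks and filters inside each list. Groups follow the sample titles, and the Baf53a genotype the labels (Baf53afl/-), from which the deposited names differ.

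Peaks overlapping by 1 bp or more were merged over all lists. Windows were fitted with limma 3.58.1 (R 4.3.3) on log2((peaks + 0.5) / list total × 1000), 1 term per group over all 18 lists, variance trend, Benjamini-Hochberg over 12130 windows. Peaks per window are not read counts, so no count model was used. Exact tests were two-sided permutations in Python 3.11.15 (numpy 2.4.6, and pandas 2.3.3 for tables). The code was tested on simulated data, and merging was checked against bedtools 2.31.1. Equal numbers of peaks were the top-scoring peaks up to the shortest list. The core of a region is the part covered by the most lists.

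Same-numbered libraries deviated together at 1 h (correlations over tiles of 0.191, 0.276 and 0.112, n = 12130), each above 0.1. Replicate 3 correlated as highly with a library of another number (0.114). At 24 h (-0.0078), in the Brg1 line (0.030) and in the Baf53a line (0.059) same-numbered libraries did not deviate together. The main limma fit and the label permutations did not use pairing, at 1 h either. Pairing entered only the limma fit with a replicate block and the permutation of signs inside same-numbered pairs. The deposited names carry 1 prefix for replicate 1 and another for later replicates, a possible batch that crosses every contrast.

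The members and lists were chosen with earlier results of these data known. Named are, per locus, regions in all lists, the 3 with the highest mean percentile, the widest, and those lost or gained. Sox17 regions 7, 11 and 12, Gata6 region 7 and Eomes region 15 were named after their values were seen. The RefSeq tables (GRCm38.p6) matched all 4 genes by symbol and were used for names and 2 promoters. No mm9 annotation was used, so other germ layer genes and the sequences under the peaks were not analysed here.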

Additional observations from a re-analysis of the deposited data

How the results depend on the processing

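The 16 density changes (4 windows in 4 contrasts) were recomputed under 168 alternatives, and none was called by limma in any of them (lowest adjusted p 0.127, Gata6 after Brg1 deletion without tamoxifen replicate 1). The replicate block, the tile size and the tile filter leave the value as it is by construction (48 alternatives). Of the other 120, 104 kept their direction and 16 reversed it. With equal numbers of peaks Eomes moved to 0.18 with ICRF-193 for 24 h and Gata6 to -0.92 after Baf53a deletion, and the cause was not tested. Leaving out single libraries gave log2 changes with ICRF-193 for 24 h from -0.48 to 0.55 (Sox17), -1.16 to 0.23 (Gata6), -0.012 to 0.55 (T) and -0.24 to 0.13 (Eomes), and for 1 h from 0.39 to 1.34 (Sox17), 0.038 to 0.57 (Gata6), 0.33 to 0.64 (T) and -0.14 to 0.41 (Eomes). After Brg1 deletion they ran from -0.46 to 0.17 (Sox17), -0.70 to 0.17 (T), -1.70 to -0.25 (Gata6) and 0.30 to 1.19 (Eomes), and after Baf53a deletion from -0.33 to 1.44 (Sox17), 0.0042 to 0.34 (Gata6), -0.60 to 0.042 (T) and -0.63 to 0.16 (Eomes). With the replicate block, which can move only the error here, none of the 16 was called (lowest limma adjusted p 0.234, Eomes after Brg1 deletion, 0.75). For the peak shares, an exact permutation of signs inside same-numbered pairs (512 patterns) gave a lowest adjusted p of 0.672.

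With windows widened by 20 kb on each side, the mean differences per 100000 over the 4 contrasts changed sign to -0.22 (Sox17), -0.048 (T) and -0.75 (Eomes), and no window passed. As base pairs under peaks per Mb under peaks of the list, they were 16.7 (Eomes), -12.0 (Gata6), 2.71 (Sox17) and 1.16 (T). The two-sided exact permutation p were 0.0954, 0.155, 0.691 and 0.797 in that order. After Benjamini-Hochberg adjustment these were 0.310 at Eomes and Gata6 and 0.797 at Sox17 and T.

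Lost regions with ICRF-193 for 24 h numbered 0 with equal numbers of peaks (11.6% of all such regions of the series), with the lowest-scoring 25% removed (15.5%) and with the core rule (16.4%). Gained regions numbered 1 with equal numbers (8.09%). At 1 h the core rule gave 1 lost region (2.41%). After Baf53a deletion 0 were gained with the lowest 25% removed (4.97%). A call without 1 library needs fewer lists, which raises counts by construction, over the genome too. With ICRF-193 for 24 h, 1 to 14 were then lost (21.7% to 42.8% of all such regions) and 0 to 6 gained (8.93% to 27.7%). At 1 h, 0 to 1 were lost (2.73% to 11.1%) and 0 gained (0.433% to 2.94%). After Brg1 deletion, 3 to 8 were lost (26.2% to 49.8%) and 1 to 4 gained (8.95% to 30.8%), and after Baf53a deletion 3 to 9 (18.1% to 35.0%) and 1 to 9 (8.05% to 31.0%). Read depth is unknown and limits what a missing peak can show.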

Other observations

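Of the 29 member regions held by 2 to 9 lists, 7 were seen in wild-type lists only, 8 in lists of the conditional lines only and 14 in both. Of all 110077 regions held by 2 to 9 lists, 22.8% were seen in wild-type lists only, 9.19% in conditional lists only and 68.0% in both. Sox17 region 11 was the most frequent of the 8, in 5 lists, and the adjacent Sox17 region 12 was seen in both kinds of line.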
